A study of Homo sapiens with 4 samples.

Results

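The mitochondrial ribosomal protein genes are the nuclear genes that encode the protein subunits of the mitochondrial ribosome. They were taken as every gene symbol in the count tables made of MRPL or MRPS and a number, with or without a final letter A, B or C. This gave 77 of 26364 symbols, 48 MRPL symbols named for the large subunit and 29 MRPS symbols named for the small subunit. The cells were NCI-H460, a human large cell lung carcinoma line of epithelial origin. They were exposed to gamma radiation at 0 or 4 Gy, followed by 48 h in either 2 uM DZNep or the solvent DMSO. DZNep (3-deazaneplanocin A) inhibits S-adenosylhomocysteine hydrolase, which lets a by-product that blocks methyltransferases accumulate, and it is widely used to deplete the histone methyltransferase EZH2. There was 1 RNA-seq library for each of the 4 groups, which are called DMSO 0 Gy and DMSO 4 Gy, and DZNep 0 Gy and DZNep 4 Gy.

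Mitochondria keep a small genome that encodes core subunits of the respiratory chain, and the mitochondrial ribosome is the machine that translates it. Its RNAs come from mitochondrial DNA, while its proteins are encoded in the nucleus, made in the cytosol and imported. Many of these proteins have counterparts in bacteria, and others exist only in mitochondria. The small subunit holds the decoding site, and the large subunit holds the site where peptide bonds form. Of the 15 mitochondrially encoded genes looked for, 0 were among the gene symbols used here, so the products and RNA partners of these proteins were not analysed.

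The total count per library ran from 112461380 to 136594350, and a member's count in a single library ran from 75 to 253071. A gene was tested when it reached 1 count per 1000000 counts (CPM) in at least 2 libraries, and 13378 genes, including all 77 members, did so. Epithelial markers summed to between 1496 and 4296 CPM with 3 of 5 markers at 1 CPM or more, and they were higher in both DZNep libraries. Fibroblast markers summed to between 22.8 and 37.6 CPM, endothelial markers to between 0.246 and 0.943 CPM and blood markers to between 14.8 and 16.2 CPM. At 1 CPM or more in any library were 3 of 7 fibroblast, 0 of 4 endothelial and 2 of 5 blood markers, with HBB at 0. The part of these differences in the results was not tested. CDKN1A, a p53 target that halts the cell cycle after DNA damage, stood at 201 CPM in DMSO 0 Gy and 251 CPM in DZNep 0 Gy against 1296 CPM in DMSO 4 Gy and 1307 CPM in DZNep 4 Gy, so its level followed the radiation labels.

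Members were abundant to very different degrees. MRPS2, a small-subunit protein with a bacterial counterpart, was by far the most abundant, with a mean of 1484 CPM over the 4 libraries, 4.81-fold above the next member. MRPL4, which lines the peptide exit tunnel of the large subunit, had a mean of 309 CPM and MRPL55, a protein found only in mitochondrial ribosomes, 270 CPM. The median member had a mean of 22.9 CPM. The least abundant were MRPL1 with a mean of 1.03 CPM, MRPS17 with 1.68 CPM and MRPS28 with 2.13 CPM. Divided by transcript length the order was similar. MRPS2 had 905 CPM per kilobase, MRPL24 had 202 and MRPL4 had 190, against a median of 15.8, while MRPL1 had 0.688, MRPS17 had 0.911 and MRPL22 had 1.87.

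**Figure D1:**
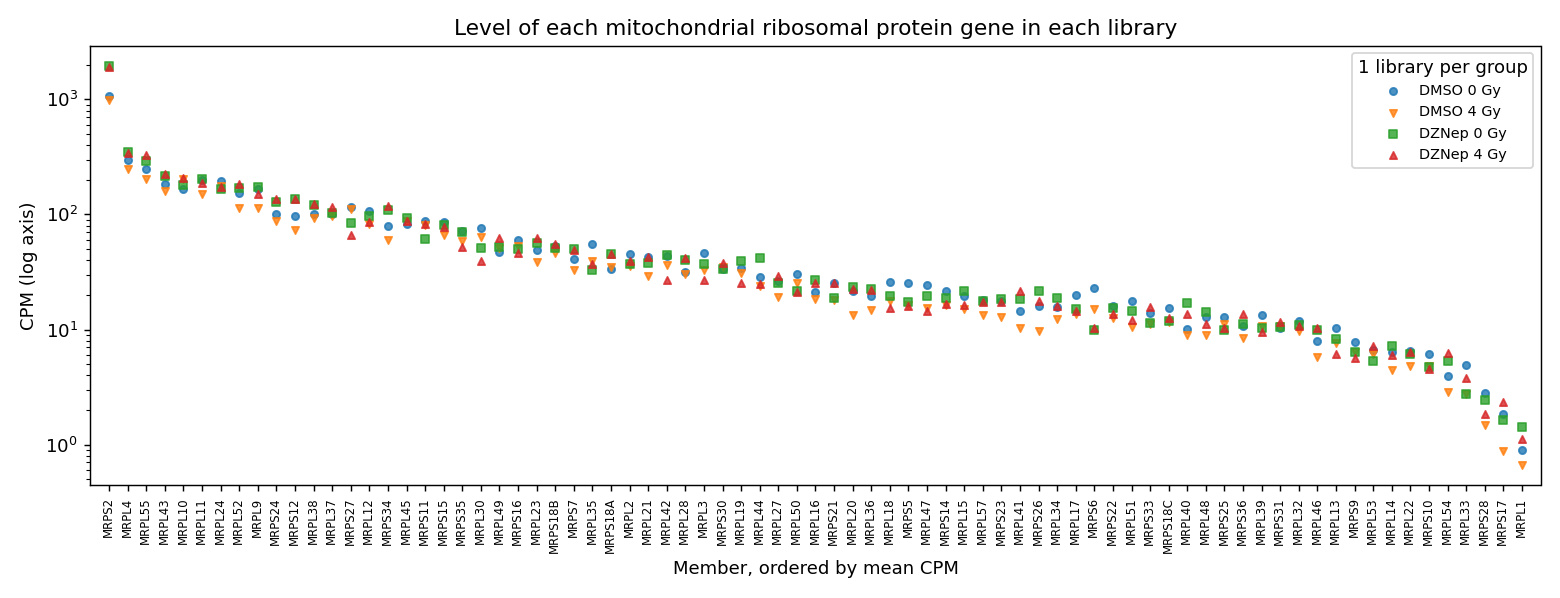
CPM (log axis) of the 77 members in each library, ordered by mean CPM over the 4 libraries, with 1 library per group and no error bar. MRPS2 stands alone at the left with its 2 DZNep values (1955 and 1928 CPM) above its 2 DMSO values (1063 and 990 CPM), and MRPL1 is last with a mean of 1.03 CPM.

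The promoters of 5 members are printed because these members span the responses described further on. MRPS24 rose and MRPS27 fell with DZNep, MRPL20 and MRPL3 were lower in DMSO 4 Gy than in DMSO 0 Gy, and MRPS18A was not. They were chosen after the values were seen. Each stretch comes from RefSeq (GRCh38.p14), lies upstream of the gene's start within 250 bases of it, overlaps no annotated exon and is written 5′ to 3′ on the gene's strand, the minus strand for all 5. Capitals mark CCGGAAG, the core bound by ETS factors such as GABPA, a classic activator of nuclear genes for mitochondrial proteins. The stretches are chr7:43869558-43869767 for MRPS24, chr5:72320262-72320366 for MRPS27, chr1:1407314-1407543 for MRPL20, chr3:131502984-131503221 for MRPL3 and chr6:43687792-43688041 for MRPS18A.
MRPS24: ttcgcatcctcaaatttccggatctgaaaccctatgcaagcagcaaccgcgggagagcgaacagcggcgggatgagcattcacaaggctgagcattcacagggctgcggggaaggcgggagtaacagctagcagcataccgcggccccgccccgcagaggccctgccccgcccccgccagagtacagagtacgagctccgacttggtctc
MRPS27: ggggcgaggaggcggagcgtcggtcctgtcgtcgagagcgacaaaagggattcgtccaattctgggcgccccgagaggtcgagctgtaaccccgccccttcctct
MRPL20: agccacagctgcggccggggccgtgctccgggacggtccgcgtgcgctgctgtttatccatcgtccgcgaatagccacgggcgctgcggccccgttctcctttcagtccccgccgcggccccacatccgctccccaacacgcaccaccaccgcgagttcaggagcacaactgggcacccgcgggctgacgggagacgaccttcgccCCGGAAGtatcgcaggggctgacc
MRPL3: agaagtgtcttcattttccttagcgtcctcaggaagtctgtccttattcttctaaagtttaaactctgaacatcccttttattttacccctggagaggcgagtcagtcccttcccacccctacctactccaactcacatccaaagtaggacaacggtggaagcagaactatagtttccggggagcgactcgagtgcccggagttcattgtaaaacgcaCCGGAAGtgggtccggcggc
MRPS18A: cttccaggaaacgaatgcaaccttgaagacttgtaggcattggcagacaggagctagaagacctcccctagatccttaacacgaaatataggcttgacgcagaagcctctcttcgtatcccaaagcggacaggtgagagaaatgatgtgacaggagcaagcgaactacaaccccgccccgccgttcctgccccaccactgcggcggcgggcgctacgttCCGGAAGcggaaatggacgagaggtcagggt

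In these letters the ETS core was found in the MRPL20, MRPL3 and MRPS18A stretches and not in those of MRPS24 and MRPS27. Over the whole family, 68 of 77 members matched the RefSeq table, with 84 start sites, and windows from 250 bases before to 50 bases after a start were searched on both strands. The ETS core (CCGGAAG) was in 38.1% of the members' windows, 16.2% of the windows of all tested genes and 10.3% of all promoters. AAGATGG, the core bound by YY1, was in 32.1% of the members' windows against 6.78% for tested genes and 5.84% for all promoters. GCATGCGC, a stretch of the palindrome bound by NRF1, was in 7.14% against 4.58% and 3.05%. Of the members printed above, MRPS24, MRPS27, MRPL20 and MRPS18A held a YY1 core in the whole window but not in the printed stretch. The last 3 letters of the ETS core are the first 3 of the YY1 core, and 0 of the members' windows held both motifs joined in this way. A match describes the sequence alone. In the DZNep test described further on, an ETS core was held by 4 of the 8 members raised and 1 of the 3 lowered. It was held by 24 of the 57 not called, so the printed stretches of MRPS24 and MRPS27 do not stand for the members called. The median DZNep log2 fold change was 0.22 with an ETS core and 0.11 without, and 0.17 with a YY1 core and 0.08 without. The median log2 ratio of DMSO 4 Gy to DMSO 0 Gy was -0.42 in the 29 members with an ETS core and -0.31 in the 39 without, and -0.27 in the 24 with a YY1 core and -0.37 in the 44 without.

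The clearest feature of the family was a low level in the DMSO 4 Gy library. The members' CPM summed to 5028 in DMSO 0 Gy, 4311 in DMSO 4 Gy, 6050 in DZNep 0 Gy and 6008 in DZNep 4 Gy. Without MRPS2 the sums were 3965, 3320, 4095 and 4080 CPM, so that DMSO 4 Gy was the low library and the other 3 lay close together. DMSO 4 Gy was the lowest of the 4 libraries for 50 of the 77 members, against 24.8% of all tested genes. The lowest library was DZNep 4 Gy for 15 members, DZNep 0 Gy for 7 and DMSO 0 Gy for 5. In bulk RNA of a culture, fewer cells of a kind and less RNA per cell cannot be told apart, and with 1 library per group a property of that library and an effect of its treatment cannot be told apart either.

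**Figure D2:**
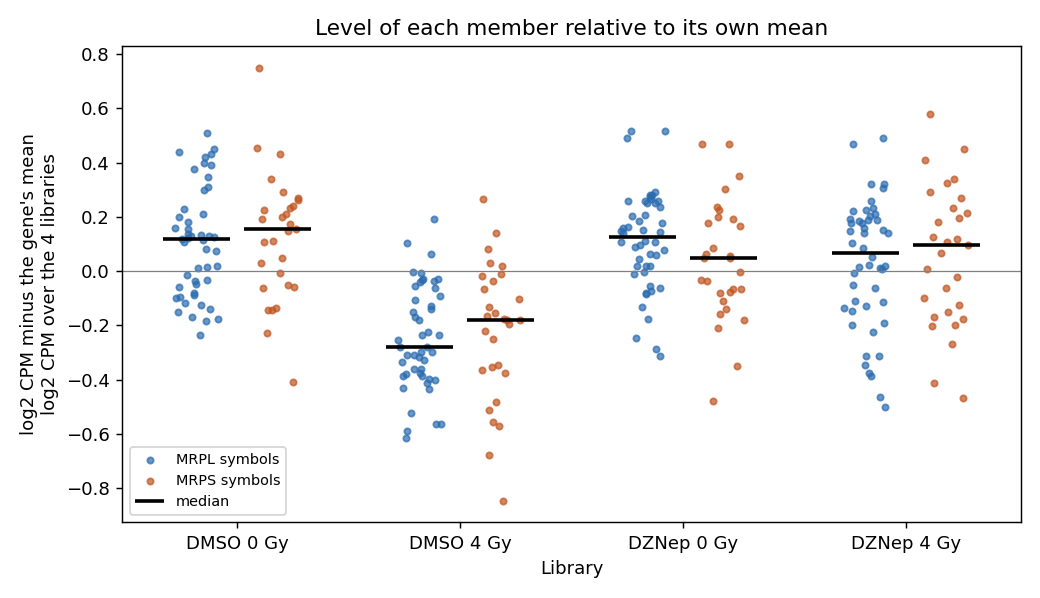
Level of each member in each library relative to its own mean over the 4 libraries (log2 CPM difference, y axis), for MRPL symbols (blue) and MRPS symbols (orange), with black bars at the medians. Both subunits sit below 0 in DMSO 4 Gy, the lowest library for 50 of 77 members, and above 0 at the median in the other 3 libraries.

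Radiation was compared within each drug arm as the log2 ratio of 4 Gy to 0 Gy, a difference between 2 libraries that has no test. In DMSO the median ratio of the members was -0.36, with the middle 50% of members from -0.46 to -0.21, against -0.00 over all tested genes. The ratio was below 0 in 71 members and above 0 in 6. The 95% interval of the 2 counts, which covers counting error only, lay below 0 in 69 and above 0 in 3. Counting error is small at this depth, and the share of such intervals over all tested genes was not counted. At least 1.25-fold lower were 44 members, against 21.5% of all tested genes, and at least 1.25-fold higher were 0 members, against 23.6%. In DZNep the median ratio was -0.02 against 0.02 over all tested genes, with 43 members below 0 and 34 above. In that arm the counting interval lay below 0 in 32 members and above 0 in 26. There, 14 members were at least 1.25-fold lower, against 18.3% of all tested genes, and 6 were at least 1.25-fold higher, against 19.7%.

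MRPL20, a large-subunit protein with a bacterial counterpart and an ETS core in its promoter above, stood at 21.4 CPM in DMSO 0 Gy, 13.4 CPM in DMSO 4 Gy, 23.5 CPM in DZNep 0 Gy and 22.5 CPM in DZNep 4 Gy. Only the DMSO 4 Gy library was low, with a log2 radiation ratio of -0.68 in DMSO (95% counting interval -0.77 to -0.59) and -0.06 in DZNep (-0.14 to 0.01). MRPL20 shares 20.6% of its exonic bases with RN7SL657P on the same strand, which was not among the gene symbols used here. MRPL21, another large-subunit protein, followed the same course at 42.9, 28.9, 38.2 and 42.9 CPM in that order of libraries. MRPL3, which reaches toward the site of peptide bond formation, differed from both in being low in each irradiated library, at 46.2, 33.1, 37.4 and 27.0 CPM. Its log2 radiation ratio was -0.48 in DMSO (-0.54 to -0.42) and -0.47 in DZNep (-0.54 to -0.41). MRPL47, a large-subunit protein, was likewise low after 4 Gy in both arms, at 24.3 CPM in DMSO 0 Gy, 15.3 in DMSO 4 Gy, 19.4 in DZNep 0 Gy and 14.5 in DZNep 4 Gy.

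A few members did not share the low level. MRPL10, a protein of the stalk that recruits translation factors, stood at 166 CPM in DMSO 0 Gy, 203 in DMSO 4 Gy, 181 in DZNep 0 Gy and 208 in DZNep 4 Gy, higher after 4 Gy in both arms. Its log2 radiation ratio was 0.29 in DMSO (95% counting interval 0.26 to 0.32) and 0.21 in DZNep (0.18 to 0.23). MRPL49, at 46.8, 51.5, 52.5 and 61.9 CPM in that order, had the same pattern. MRPS18A and MRPS30, whose proteins sit in the large subunit of the mammalian ribosome despite their names, had log2 radiation ratios in DMSO of 0.05 and 0.04, with counting intervals that included 0. MRPS18A shares 56.9% of its exonic bases with RSPH9 on the opposite strand, and whether the counting used strand is not given in the sources used here, so its value is uncertain.

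**Figure D3:**
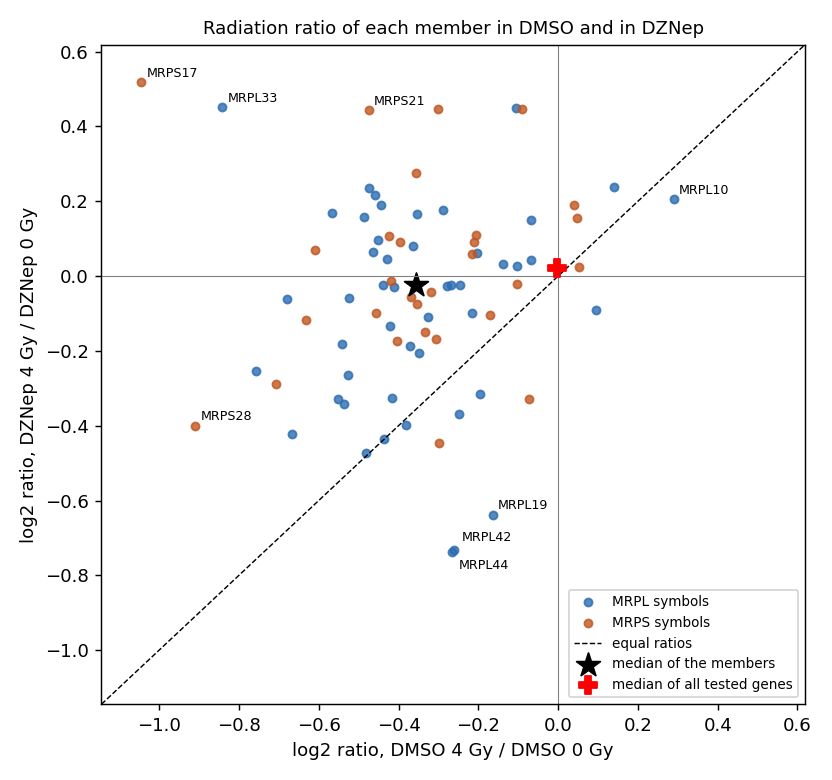
Log2 ratio of 4 Gy to 0 Gy in DZNep (y axis) against the same ratio in DMSO (x axis) for each of the 77 members, 1 pair of libraries per axis. Most points lie left of 0 and above the dashed line of equal ratios; the members' median (star) is at -0.36 and -0.02, the median of all tested genes (cross) at -0.00 and 0.02.

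Across the 77 members the radiation ratios in the 2 arms, which share no library, had a Pearson r of 0.088 and a Spearman rho of 0.138. Over the 7774 genes at a mean of 10 CPM or more they were 0.539 and 0.5. Both are descriptions across genes, which are not independent replicates and share the depth of their libraries. The difference of the ratios, DZNep minus DMSO, had a median of 0.27 in the members and 0.00 over all tested genes, and it has no error estimate. It was at least 1.25-fold higher in DZNep for 32 members, against 21.7% of all tested genes, and at least 1.25-fold lower for 3 members, against 21.8%.

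Among members that reached 10 CPM in at least 1 library (67 of 77), the largest differences belonged to MRPS21 (0.92), MRPS33 (0.75), MRPL21 (0.74) and MRPL41 (0.71). MRPS21, a small-subunit protein with a bacterial counterpart, stood at 25.2 CPM in DMSO 0 Gy, 18.1 in DMSO 4 Gy, 18.6 in DZNep 0 Gy and 25.3 in DZNep 4 Gy, so that each treatment alone went with a lower level and both together with the starting level. MRPS33, found only in mitochondrial ribosomes, had 13.9, 11.3, 11.4 and 15.5 CPM in that order. At the other end were MRPL19 (-0.47), MRPL44 (-0.47), MRPL42 (-0.47) and MRPS27 (-0.26). MRPL44, which lies near the exit of the peptide tunnel, stood at 28.7 CPM in DMSO 0 Gy, 23.9 in DMSO 4 Gy, 41.5 in DZNep 0 Gy and 24.8 in DZNep 4 Gy. Its DZNep 0 Gy library was the high one, and its log2 radiation ratio was -0.27 in DMSO (95% counting interval -0.34 to -0.20) and -0.74 in DZNep (-0.81 to -0.67). MRPL19 (34.5, 30.7, 39.2 and 25.2 CPM) and MRPL42 (43.4, 36.2, 44.5 and 26.8 CPM) were lowest in DZNep 4 Gy.

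The radiation effect over both arms was tested with edgeR's quasi-likelihood test in a model with drug and dose as additive terms over the 4 libraries. Its only residual degree of freedom is the departure from additivity, so a gene whose radiation ratio differs between the arms has a large spread. Under this test 0 of 77 members were called higher and 0 lower at a Benjamini-Hochberg adjusted p of 0.05, against 2.17% and 0.897% of all tested genes. At an unadjusted p under 0.05 there were 13 members, against 20.6% of all tested genes, and DESeq2 called 0 in each direction. The median log2 fold change was -0.20 against 0.01 over all tested genes, with 67 members below 0 and 10 above, and a typical member's standard error (SE) was 0.18. The lowest values at 10 CPM or more were MRPL47 (-0.55), MRPL51 (-0.51), MRPL44 (-0.50), MRPS26 (-0.50) and MRPL42 (-0.50). The highest were MRPL10 (0.25), MRPL49 (0.19), MRPS11 (0.18), MRPS30 (0.12) and MRPS31 (0.10). With a stricter filter, 10 CPM in 2 or more libraries, 3 members were called lower by edgeR's quasi-likelihood test: MRPL47 (-0.54, adjusted p = 0.0396), MRPL42 (-0.49, adjusted p = 0.0433) and MRPL44 (-0.50, adjusted p = 0.0452). These were 3 of the 66 members tested there, against 5.51% of all genes tested, so the count was no larger than the background. MRPL51 shares 29.9% of its exonic bases with NCAPD2 on the opposite strand.

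DZNep changed 11 of the 77 members in the same model. It raised 8 (MRPS2, MRPS34, MRPL41, MRPS12, MRPL40, MRPS26, MRPS24 and MRPL55), against 10.8% of all tested genes, and lowered 3 (MRPS6, MRPL30 and MRPS27), against 12.3%. The share of members raised was near that of all genes. The other 66 members were not called. An unadjusted p under 0.05 was found in 25 of the 77, against 36.0% of all tested genes, so changes were no more frequent than in other genes. The median log2 fold change was 0.11, against -0.02 over all tested genes.

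MRPS2 rose most, and its DMSO and DZNep libraries did not overlap: 1063 CPM in DMSO 0 Gy and 990 CPM in DMSO 4 Gy against 1955 and 1928 CPM in DZNep. The log2 fold change was 0.92 (SE 0.13, edgeR quasi-likelihood adjusted p = 0.000324). MRPS12, a decoding-site protein with a bacterial counterpart, stood at 97.7 and 73.2 CPM in DMSO 0 Gy and 4 Gy against 137 and 136 CPM in DZNep, a log2 fold change of 0.69 (SE 0.16). MRPS34, found only in mitochondrial ribosomes, stood at 80.04 and 59.6 CPM in DMSO 0 Gy and 4 Gy against 109 and 118 CPM in DZNep (log2 fold change 0.71, SE 0.17). For MRPS12 and MRPS34, as for MRPS2, both DZNep libraries lay above both DMSO libraries. These genes were called on the same libraries, so this separation adds no support to the calls. It was also seen in several members that were not called. Among these were MRPS18A (33.6 and 34.8 CPM in DMSO against 44.9 and 45.7 CPM in DZNep), MRPL4 (299 and 247 CPM against 347 and 341 CPM) and MRPL20 (21.4 and 13.4 CPM against 23.5 and 22.5 CPM). Its share over all tested genes was not counted. MRPS12 shares 21.5% of its exonic bases with SARS2 on the opposite strand. MRPS2 shares 14.9% with AL161452.1 and 4.15% with C9orf116, both also on the opposite strand.

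The remaining members that rose were of moderate or low level. MRPL41, found only in mitochondrial ribosomes, had 14.4 CPM in DMSO 0 Gy and 10.4 in DMSO 4 Gy against 18.4 and 21.7 CPM in DZNep, a log2 fold change of 0.70 (SE 0.20). MRPL40, a large-subunit protein, had 10.2 and 8.89 CPM against 16.8 and 13.5 CPM (0.67, SE 0.18), and MRPS26, a small-subunit protein, 15.9 and 9.70 CPM against 21.5 and 17.6 CPM (0.65, SE 0.19). MRPS24, with the promoter printed above, had 101.1 and 87.4 CPM against 128 and 137 CPM (0.49, SE 0.16). It shares 77.0% of its exonic bases with the readthrough gene URGCP-MRPS24, so its counts are uncertain. MRPL55 had 250 and 205 CPM against 293 and 332 CPM (0.46, SE 0.16), and its adjusted p of 0.0483 by edgeR's quasi-likelihood test was the nearest to the threshold among the members called. Its adjusted p was 0.0562 with scaling factors taken before the filter, and 0.0847 with no filter on low counts. In each of these 5 genes too the lowest DZNep library lay above the highest DMSO library. Again this adds no support, since the genes were called on the same libraries.

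MRPS6, a small-subunit protein with a bacterial counterpart, fell most: 23.1 CPM in DMSO 0 Gy and 15.1 in DMSO 4 Gy against 9.83 and 10.3 CPM in DZNep, a log2 fold change of -0.89 (SE 0.21, edgeR quasi-likelihood adjusted p = 0.00834). It shares 29.7% of its exonic bases with AP000317.2 and 17.8% with SLC5A3, both on the same strand, so its counts are uncertain. MRPL30, a large-subunit protein, had 76.1 and 64.1 CPM against 51.2 and 39.7 CPM (-0.63, SE 0.16). It shares 20.2% and 13.6% of its exonic bases with AC079447.1 and AC092587.1 on the same strand. Neither of these genes nor AP000317.2 was among the gene symbols used here. MRPS27, an RNA-binding protein of the pentatricopeptide repeat type, had 117 and 111 CPM against 84.0 and 66.8 CPM (-0.61, SE 0.16). For these 3 genes both DZNep libraries lay below both DMSO libraries, the same libraries on which they were called. The next lowest values at 10 CPM or more, MRPL35 (-0.41, SE 0.18) and MRPL50 (-0.38, SE 0.17), both large-subunit genes, were not called. MRPL12, a stalk protein that also binds the mitochondrial RNA polymerase, had a log2 fold change of -0.03 (SE 0.15). It shares 68.2% of its exonic bases with AC139530.2 on the same strand, also not among those symbols, so its counts are uncertain. MRPS36, now known as a component of the 2-oxoglutarate dehydrogenase complex, had 0.37 (SE 0.21). Neither MRPL12 nor MRPS36 was called.

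The DZNep ratio of the family had different medians at the 2 doses. For each gene, the ratio at 4 Gy minus that at 0 Gy equals the difference of the radiation ratios given above. It is therefore the same result seen another way, and it was not tested. The 4 Gy ratio is taken over the DMSO 4 Gy library, in which most members were low. At 0 Gy its median was -0.01, against -0.03 over all tested genes, with 13 members at least 1.25-fold higher (24.8% of all tested genes) and 17 at least 1.25-fold lower (28.2%). At 4 Gy its median was 0.26, against -0.00, with 35 members at least 1.25-fold higher (25.5% of all tested genes) and 4 at least 1.25-fold lower (27.4%). The ratio kept its sign at both doses in 53 of 77 members, against 74.2% of all tested genes. It did so in all 11 members called, which adds no support to the calls. The test that called them counts disagreement between the doses as spread. Across the 77 members the ratios at the 2 doses, which share no library, had a Pearson r of 0.635 and a Spearman rho of 0.666, against 0.765 and 0.688 over the 7774 genes at a mean of 10 CPM or more. MRPS2 was high at both doses, with ratios of 0.88 (95% counting interval 0.87 to 0.89) and 0.96 (0.95 to 0.97). MRPL41 had ratios of 0.35 and 1.06, and MRPS34 of 0.45 and 0.98.

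**Figure D4:**
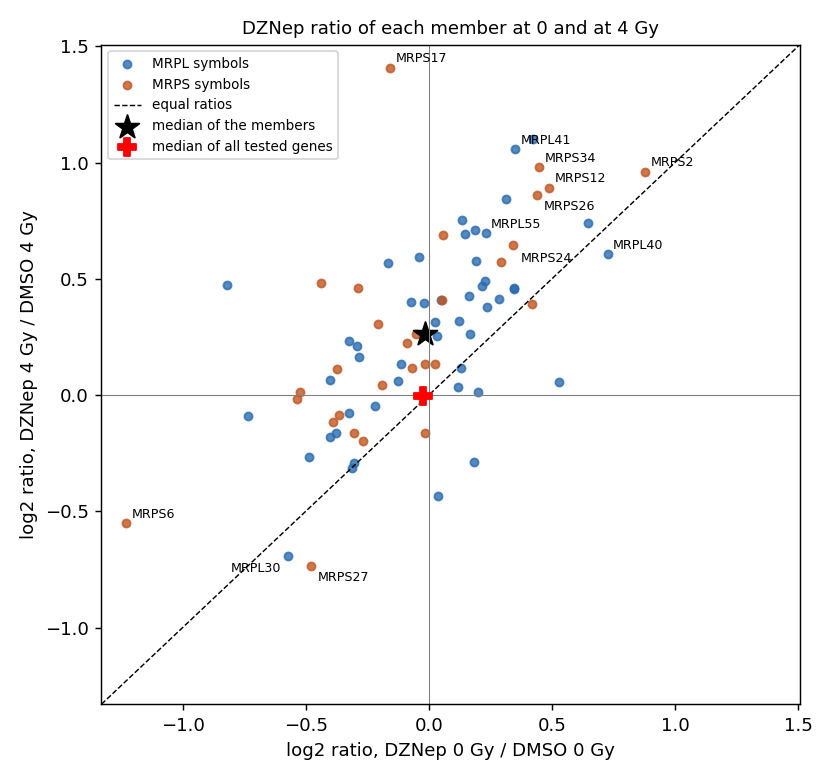
Log2 ratio of DZNep to DMSO at 4 Gy (y axis) against the same ratio at 0 Gy (x axis) for each of the 77 members, 1 pair of libraries per axis. Most points lie above the dashed line of equal ratios; the members' median (star) is at -0.01 and 0.26, and the 11 members called by the DZNep test carry their names, with MRPS17.

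Small and large subunit genes had close medians for radiation and less close ones for DZNep. In DMSO the median radiation ratio was -0.33 for the 29 MRPS symbols and -0.38 for the 48 MRPL symbols, and in DZNep -0.01 and -0.03. The difference of the ratios had medians of 0.31 and 0.24. The median DZNep log2 fold change was 0.06 for MRPS and 0.18 for MRPL symbols. At 0 Gy the median DZNep ratio was -0.09 for MRPS symbols, with 10 of 29 above 0, and 0.08 for MRPL symbols, with 28 of 48 above 0. At 4 Gy the medians were 0.23 and 0.32. With MRPS30 and MRPS18A counted in the large subunit and MRPS36 left out, the medians at 0 Gy were -0.17 and 0.08, and at 4 Gy 0.18 and 0.32. DZNep raised 5 and lowered 2 of 29 MRPS symbols, and raised 3 and lowered 1 of 48 MRPL symbols, beside 10.8% of all tested genes raised and 12.3% lowered. The summed level differed more because of 1 gene: MRPS symbols summed to 2152, 1898, 3046 and 3027 CPM in the order DMSO 0 Gy and 4 Gy, DZNep 0 Gy and 4 Gy, but to 1089, 908, 1091 and 1099 CPM without MRPS2. MRPL symbols summed to 2876, 2413, 3004 and 2981 CPM. No test was made between the subunits, since genes are not replicates.

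The members that rose with DZNep were GC-rich. GC content was taken from the longest annotated transcript of each gene, and its median over the members was 48.9%. When the members were split by GC content, a split chosen after the values were seen, all 8 that rose were among the 26 highest in GC. The 25 in the middle held 2 that fell and the 26 lowest held 1. These groups also differed in length and level, and the part of either in the calls was not tested. From the lowest to the highest GC group, median transcript length was 1818, 1605 and 1094.5 bases and the median of mean CPM 12.9, 21.8 and 52.4. Of genes at a mean of 10 CPM or more in the same ranges of GC, from the lowest to the highest, DZNep raised 8.33%, 12.8% and 14.7% and lowered 13.2%, 11.0% and 11.7%. The median DZNep log2 fold change was -0.08, 0.06 and 0.39 from the lowest to the highest GC group of members. Over genes at a mean of 10 CPM or more in the same ranges of GC it was -0.09, 0.02 and 0.08. Across the 77 members GC content and the DZNep log2 fold change had a Pearson r of 0.565 and a Spearman rho of 0.577, against 0.105 and 0.149 over 7498 genes at a mean of 10 CPM or more. These are descriptions across genes of the same 4 libraries. After a trend on GC content and length was removed from each library, 11 members were called higher and 3 lower, against 11.6% and 13.3% of all genes in that fit, and 10 of the 11 members called without that step were still called. The exception was MRPL41, with a log2 fold change of 0.53 and an adjusted p of 0.0503 by edgeR's quasi-likelihood test. The trend was fitted over genes with a mean above 10 CPM, where this relation was weak (Pearson r 0.105), not over the members. Its removal is therefore no test of the steeper gradient among the members, and the part of GC content in the calls was not tested. The low level in DMSO 4 Gy had no such gradient: the median radiation ratio in DMSO was -0.38, -0.38 and -0.35 from the lowest to the highest GC group of members, and -0.08, -0.02 and 0.04 over genes at a mean of 10 CPM or more in the same ranges.

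**Figure D5:**
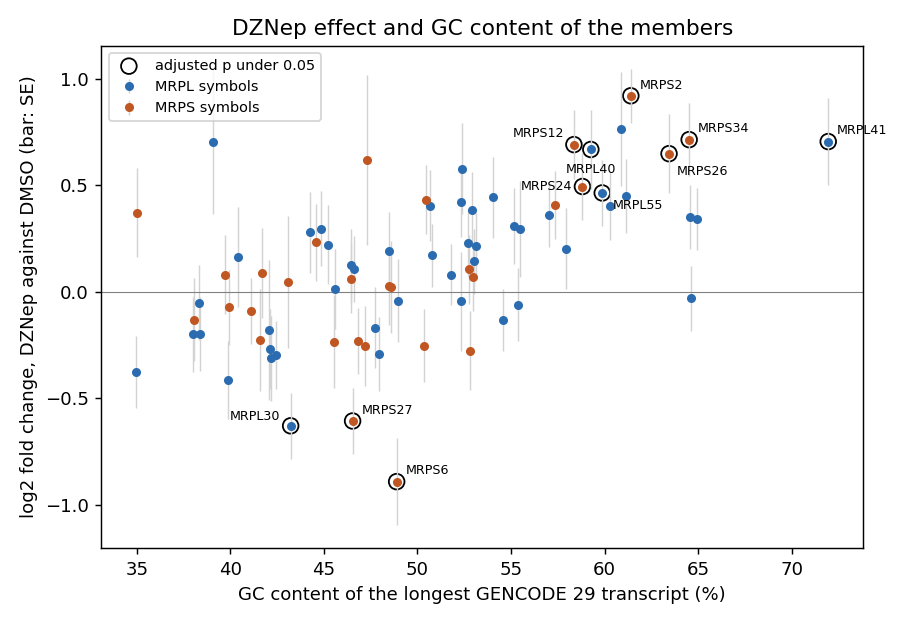
Log2 fold change of DZNep against DMSO (y axis, grey bars 1 SE of the additive model) against the GC content of the longest GENCODE 29 transcript (x axis, percent) for the 77 members. The 8 circled members that rose all lie among the 26 highest in GC content, and the 3 that fell lie among the other members.

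Other parts of the same machinery were read from gene lists. Of 4 small-subunit genes with other names (DAP3, PTCD3, AURKAIP1 and CHCHD1) and 2 large-subunit genes (GADD45GIP1 and ICT1), 0 were called for DZNep or radiation by edgeR's quasi-likelihood test, and 4 of the 6 had an unadjusted p under 0.05 for DZNep and 2 for radiation. Over all tested genes the shares at such an unadjusted p were 36.0% for DZNep and 20.6% for radiation. The radiation ratios in DMSO were below 0 in all 6 genes. CHCHD1 had 7.43 CPM in DMSO 0 Gy, 4.14 in DMSO 4 Gy, 8.91 in DZNep 0 Gy and 9.49 in DZNep 4 Gy, low in the DMSO 4 Gy library like most members. DAP3, the GTP-binding protein of the small subunit, was the most abundant of the 6 at 637, 596, 465 and 578 CPM in that order and was low in DZNep 0 Gy.

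Over all tested genes DZNep raised 10.8% and lowered 12.3%, the shares to set beside the counts of the next 3 lists. Of 24 genes for assembly of the mitochondrial ribosome and modification of its RNA, DZNep raised 0 and lowered 2. These were YBEY, an RNA-processing enzyme, with a log2 fold change of -1.35 (SE 0.24), and MRM1, a ribosomal RNA methyltransferase, with -1.17 (SE 0.36). Of 15 translation factors, DZNep raised 0 and lowered 2: MTFMT, which formylates the initiator tRNA, by a log2 fold change of -0.88 (SE 0.23), and LRPPRC, which stabilises mitochondrial messenger RNA, by -0.72 (SE 0.17). Of 13 genes for transcription, RNA processing and replication of mitochondrial DNA, DZNep raised C10orf2, the mitochondrial helicase (0.71, SE 0.18), and lowered POLG, the mitochondrial DNA polymerase (-0.75, SE 0.18), and KIAA0391, a tRNA-processing enzyme (-0.75, SE 0.16). In the same edgeR quasi-likelihood fit radiation changed 0 genes of these 3 lists, with 1, 3 and 1 at an unadjusted p under 0.05. Over all tested genes radiation raised 2.17% and lowered 0.897%, and 20.6% had such an unadjusted p. The median radiation ratios of the 3 lists in DMSO were -0.20, -0.23 and -0.27, between the members and all tested genes.

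Among 10 transcriptional regulators of nuclear genes for mitochondrial proteins, DZNep raised MYC, a growth-promoting transcription factor, and lowered GABPB1, the partner of the ETS factor GABPA. Over all tested genes DZNep raised 10.8% and lowered 12.3%. GABPB1 had 56.9 CPM in DMSO 0 Gy, 33.1 in DMSO 4 Gy, 35.5 in DZNep 0 Gy and 25.3 in DZNep 4 Gy, with a DZNep log2 fold change of -0.53 (SE 0.17). MYC had 302, 224, 499 and 346 CPM, with 0.68 (SE 0.14). NRF1, an activator of many mitochondrial genes, had 18.3, 11.4, 15.1 and 18.1 CPM and was low in DMSO 4 Gy, but it was called for neither effect. YY1 had 13.5, 12.1, 16.3 and 14.7 CPM and was called for neither.

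The pattern was set beside 2 other families whose products work with or resemble this one. Of 77 tested cytosolic ribosomal protein genes, DZNep raised 0 and lowered 28. Of 75 tested nuclear genes for respiratory chain subunits it raised 0 and lowered 10. Over all tested genes it raised 10.8% and lowered 12.3%, so the share of respiratory chain genes lowered was near that of all genes. The median DZNep log2 fold changes were -0.38 (cytosolic ribosome) and -0.17 (respiratory chain), against 0.11 in the mitochondrial ribosomal protein genes. The median radiation ratio in DMSO was -0.08 for the cytosolic ribosomal proteins and -0.16 for the respiratory chain, against -0.36, with 48 of 77 and 60 of 75 genes below 0 against 71 of 77. In DZNep the medians were 0.23 and 0.10 against -0.02. The difference between the arms was nearly the same in the 3 families, with medians of 0.31, 0.29 and 0.27. None of these contrasts between families was tested.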

How the data were processed

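RNA-seq of the 4 libraries was deposited as raw counts per gene, 4250 of them at 0 throughout. TopHat, edgeR and the hg19 build are named, per the submitters' processing notes, without roles or versions. How reads were counted, and with which annotation and strand setting, is not given in the sources used here. Members and gene lists were chosen with earlier results of these data known. Genes at 1 CPM or more in at least 2 libraries were kept, and TMM factors (0.979 to 1.013) were computed on them. edgeR 4.0.16 (R 4.3.3) fitted drug plus dose by quasi-likelihood over all 4 libraries, with 1 residual degree of freedom, and p-values were Benjamini-Hochberg adjusted over 13378 genes. The scripts were tested on simulated data.

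Ratios of 2 libraries used TMM-scaled CPM with a prior count of 2, and exact binomial intervals at 95% that cover counting error only. Nothing says that the libraries came from separate cultures. DESeq2 1.42.0, other scalings and filters, a model with 1 factor, halved counts, a trend on GC content and length (mgcv 1.9.3), single pairs and other subunit assignments were alternatives. Transcript lengths, GC content and overlaps came from GENCODE 29 (GRCh38). The files use hg19, and no coordinate was moved between builds.

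Members with values in the text are those called, the 5 highest and 5 lowest of each effect and the 4 highest and 4 lowest of the difference at 10 CPM or more, the 3 most and 3 least abundant, and 6 named for their role (MRPL12, MRPL41, MRPS12, MRPS30, MRPS18A and MRPS36). MRPL20, MRPL3 and MRPL33 were added after their values were seen.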

Additional observations from a re-analysis of the deposited data

Results flagged for a closer look

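For 3 members the level after 4 Gy was at least 1.25-fold lower in DMSO and at least 1.25-fold higher in DZNep, with both 95% counting intervals on their side of 0. The difference was not tested, since there is 1 library per group. MRPS21 had log2 radiation ratios of -0.47 in DMSO and 0.44 in DZNep, on 18.1 to 25.3 CPM per library. MRPL33, a large-subunit protein with a bacterial counterpart, had -0.84 and 0.45 on counts of 680, 307, 359 and 432 in the order DMSO 0 Gy and 4 Gy, DZNep 0 Gy and 4 Gy. MRPS17, a small-subunit protein, had -1.04 and 0.52 on counts of 254, 99, 213 and 269, and it shares 25.5% of its exonic bases with another annotated gene on the same strand.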

How the results depend on the processing

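No paired analysis was possible because each group has 1 library and the labels give no replicate numbers. The number of members that DZNep raised (8) was 5 with no filter on low counts, when MRPL41 (adjusted p = 0.0527), MRPS24 (0.0681) and MRPL55 (0.0847) were not called by edgeR's quasi-likelihood test. It was 1, MRPS2, when dose was left out of the model, and the number lowered (3) was then 0. DESeq2 called 8 and 3, and the 10 CPM filter gave 12 and 3, with 15.3% of all genes tested there raised. The number that radiation lowered was 3 in place of 0 with the 10 CPM filter. Over all genes, radiation called 290 higher and 120 lower, against 447 and 214 with DESeq2, 407 and 174 with RLE factors, 351 and 266 with plain library size, 134 and 65 with no filter, 590 and 441 with the 10 CPM filter, 182 and 71 with TMM before the filter, 227 and 81 with the GC trend removed, and 0 and 0 when drug was left out. DZNep called 1446 and 1640, against 355 and 366 when dose was left out. The log2 drug ratio of the summed level was 0.27 at 0 Gy and 0.48 at 4 Gy, and 0.047 and 0.30 without MRPS2. These 2 alternatives (TMM before the filter, sums without MRPS2) were chosen after seeing the data. Leaving out a library leaves no residual degree of freedom, so the pairs are given as ratios: the median for radiation (-0.20) was -0.36 in the DMSO pair and -0.02 in the DZNep pair, and for DZNep (0.11) it was -0.01 at 0 Gy and 0.26 at 4 Gy. Under other scalings and prior counts the members' median radiation ratio in DMSO ranged from -0.38 to -0.33. No member with a call changed direction under any alternative run. Counting error is small at this depth except for members with low counts, such as MRPL1, MRPS17, MRPS28, MRPL33 and MRPL54. The spread between cultures is unknown.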

Other observations

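Several members share a start region with a gene read in the opposite direction. Within 1000 bases of a member's start there were 22 such pairs of tested genes in GENCODE 29, 21 of them with a gene that is not a member. The DZNep log2 fold changes of member and partner had the same sign in 10 of the 21 pairs, and a Pearson r of 0.291 and a Spearman rho of 0.247 across them. DZNep raised 0 of the 21 partners and lowered 1, against 10.8% raised and 12.3% lowered of all tested genes. The partner lowered was NDUFB5, a respiratory chain subunit beside MRPL47, with a log2 fold change of -1.07 (SE 0.17). MRPL47 itself had -0.20 and was not called. The median radiation ratio in DMSO was -0.42 for the members of these pairs and -0.08 for their partners, 13 of which were below 0. No test was made, since genes are not replicates and some pairs share annotated exonic bases.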
